A study of Gallus gallus with 9 samples.

Results

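HAND1 and HAND2 are the heart and neural crest derivatives expressed genes, a pair of related basic helix-loop-helix (bHLH) transcription factors. The members were the probe sets whose annotated gene symbol is HAND1 or HAND2, and 2 of the 38439 probe sets other than controls met this rule, 1 for each gene. RNA had been measured in explants of chick splanchnic mesoderm taken as the anterior heart field, a source of progenitors of the outflow tract and right ventricle. The explants lay on collagen in medium with fetal calf serum and chick embryo extract, so every cultured group shares these additions. The 9 arrays form 7 groups. Untreated explants were taken at 0, 3, 12 and 24 h, and explants given human recombinant BMP4 at 200 ng/ml were taken at 3, 12 and 24 h. The 12 h groups hold 2 arrays each, A and B, and all other groups hold 1. Whether A and B came from different embryos or from 1 RNA extract is not in the labels, and neither is the number of embryos per sample. The p-values therefore reflect the spread between these arrays, which may be technical. For the difference across times they also reflect how much the BMP4 difference varied between 3, 12 and 24 h.

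HAND proteins bind DNA as dimers with the widely expressed E proteins, and ID proteins, which lack a DNA-binding region, compete for the same partners. In the mouse, HAND2 is needed for growth of the right ventricle and for the pharyngeal arches, and HAND1 is found mainly in the left ventricle, outflow tract and extraembryonic mesoderm. In the chick both genes are expressed in the early heart and the lateral plate mesoderm, and BMP signals from neighbouring tissue are known to promote their expression. HAND2 also takes part in limb patterning and in the noradrenergic differentiation of sympathetic neurons. The comparison asks whether explants given BMP4 differ from untreated ones in the RNA of these factors, and at which times.

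HAND2 signal was higher with BMP4 at every time measured, with ratios between 1.81 and 2.19, and this difference passed the test across times. HAND1 signal was near the bottom of the array in all untreated explants and stood above the middle of the array on the pair of BMP4 arrays at 12 h alone, a difference that did not pass the test over all probe sets. The values are probe set signals on the linear MAS5 scale, and levels are not compared between the genes. Both probe sets are of the type whose probes can match more than 1 transcript.

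HAND2 (probe set GgaAffx.21783.1.S1_s_at, gene ID 395813, chromosome 4 of the RefSeq assembly GRCg7b) was at 420.2 in untreated explants at 0 h. Without BMP4 it was at 266 at 3 h, at 588 (A) and 382 (B) at 12 h, and at 377 at 24 h. With BMP4 it was at 584 at 3 h, at 827 (A) and 928 (B) at 12 h, and at 731 at 24 h. Within each time, every BMP4 array was above every untreated array. Across times the arms met in 1 place, where untreated 12 h array A lay just above the BMP4 3 h array. These signals were above those of 71.7% to 84.1% of the other probe sets on the same array, so HAND2 was clearly measured on all 9 arrays.

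HAND1 (probe set GgaAffx.21786.1.S1_s_at, gene ID 395812, chromosome 13) was at 8.19 in untreated explants at 0 h. Without BMP4 it was at 13.0 at 3 h, at 12.0 (A) and 13.8 (B) at 12 h, and at 12.9 at 24 h. With BMP4 it was at 12.9 at 3 h, at 119 (A) and 152 (B) at 12 h, and at 24.4 at 24 h. The untreated arrays and the BMP4 3 h array form a flat floor, where HAND1 exceeded only 4.1% to 10.6% of the probe sets of the array. On the BMP4 12 h arrays it exceeded 61.3% and 65.0% of them, and on the BMP4 24 h array 22.0%. The deposited values come without detection calls, so the 40th percentile of each array, between 46.4 and 46.9, was taken as a mark for dim signal. HAND1 was 2.55 and 3.26 times that mark on the BMP4 12 h arrays and 0.176 to 0.52 times on the other arrays. No level can be read from values so far under the mark, and the BMP4 24 h value, though the next highest, is under it as well.

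**Figure D1:**
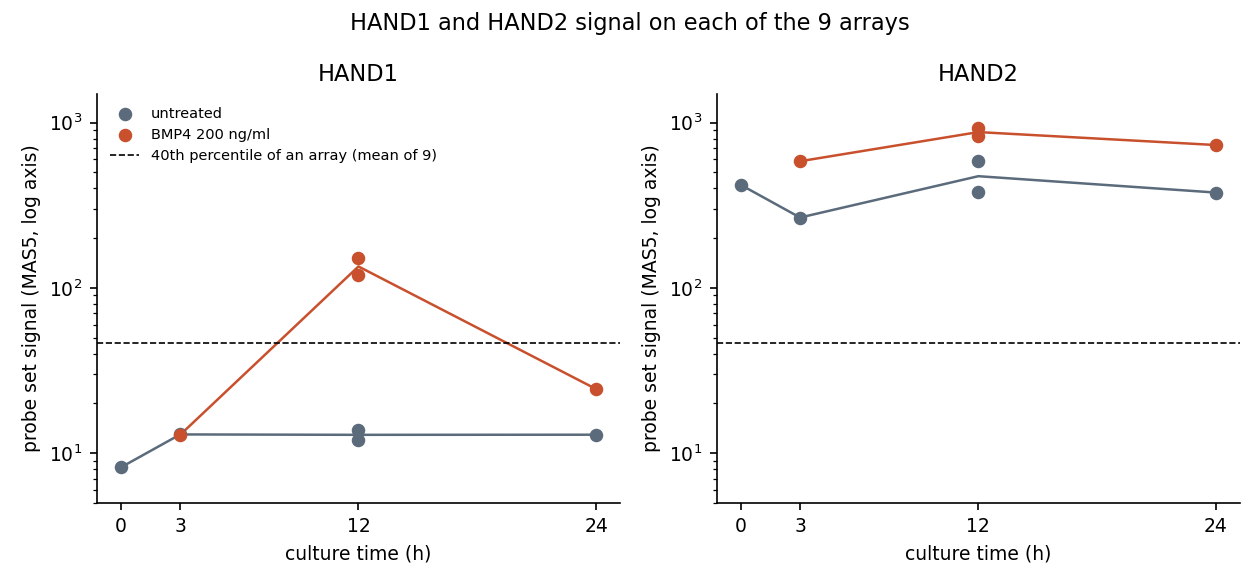
Probe set signal (log axis) of HAND1 (left) and HAND2 (right) against culture time in h. Each point is 1 array, lines join the geometric means of untreated (grey) and BMP4-treated (red) explants, and the dashed line is the mean 40th percentile of the arrays. HAND1 leaves the floor only at 12 h with BMP4, at 119 and 152, and its 3 h points (13.0 and 12.9) lie on each other. HAND2 runs from 266 to 588 without BMP4 and from 584 to 928 with it.

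The tests took in probe sets that lay above the 40th percentile of an array on 2 or more arrays. HAND2 did so on all 9 arrays. HAND1 did so on 2, both of them BMP4 12 h arrays, so it entered the test only through the group in which it is high. Such a profile was not confined to HAND1: 57 probe sets, 0.201% of those tested, exceeded the mark on the BMP4 12 h arrays alone. A like number, 48 or 0.169%, exceeded it on the untreated 12 h arrays alone. Differences were taken on log2(signal + 27.79), where 27.79 is the 25th percentile of all deposited signals. They were tested with limma over 28329 probe sets, with errors after ± as standard errors of the log2 difference. A call means a Benjamini-Hochberg adjusted p under 0.05.

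Over 3, 12 and 24 h, HAND2 was 1.89-fold higher with BMP4. Its log2 difference was 0.91 ± 0.17 (95% interval 0.54 to 1.29, unadjusted p = 0.000152, adjusted p = 0.0225). In this comparison 340 probe sets (1.2% of those tested) were called, 209 (0.738%) of them higher, and 285 probe sets had a greater difference than HAND2. The difference of HAND1 was 1.09 ± 0.37 (0.29 to 1.89, unadjusted p = 0.0113) and did not pass the test (adjusted p = 0.256). This value rests on the 12 h arrays and on the amount added: it was 0.18 without the 12 h arrays, 0.78 as the mean of the 3 times weighted equally, 1.86 with 1 added and 0.56 with 100 added, none of them called. The median over all tested probe sets was −0.01. An exact permutation test that exchanged the agent within each time gave HAND2 a two-sided p = 0.0833, the smallest that the 24 arrangements allow, and HAND1 p = 0.167. Neither could fall under 0.05 in this design. The HAND2 call was lost when any of 3 of the 12 h arrays was left out (untreated B, BMP4 A or BMP4 B, adjusted p = 0.0738, 0.0631 and 0.0874), without the 24 h pair (0.0826), without the 12 h arrays (0.588), and without the variance trend (0.193).

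At 12 h, the time with replicates, HAND2 averaged 878 ± 71.9 with BMP4 and 485 ± 145 without (SD, n = 2 each). The ratio of these means was 1.81. The untreated arrays themselves differed from each other by more than the BMP4 arrays did, and the log2 difference of 0.85 ± 0.26 was not called (0.27 to 1.43, adjusted p = 0.282). It was 1.14 without untreated A and 0.55 without untreated B. HAND1 averaged 136 ± 23.6 with BMP4 and 12.9 ± 1.3 without (SD, n = 2 each). The log2 difference of HAND1 was 2.0 ± 0.42 (1.07 to 2.93, unadjusted p = 0.00073) and missed the threshold (adjusted p = 0.0805). Its size and its p depend on the amount added, because the untreated signals lie under 27.79: it was 3.29 with 1 added and 1.06 with 100 added, and the last of these was called (adjusted p = 0.0331). HAND1 entered the test only through these BMP4 12 h arrays. Its p-values in comparisons that use them, called or not, are therefore description and no support. At 12 h 174 probe sets (0.614%) were called, 110 (0.388%) of them higher and 64 (0.226%) lower.

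At 3 h, with 1 array against 1, HAND2 was at 584 with BMP4 and 266 without, a log2 difference of 1.06 ± 0.37 (0.24 to 1.87, unadjusted p = 0.0162, adjusted p = 1). HAND1 was at 12.9 against 13.0, a difference of 0.0 ± 0.59 between values that both lie on the floor. At this time 4 probe sets, 0.0141%, were called. At 24 h HAND2 was at 731 against 377, a log2 difference of 0.91 ± 0.37 (0.09 to 1.72, adjusted p = 0.423). HAND1 was at 24.4 against 12.9, a log2 difference of 0.36 ± 0.59 (−0.96 to 1.68, adjusted p = 0.91). At 24 h 204 probe sets, 0.72%, were called. The spread of these lone arrays is assumed to equal that of the 12 h arrays.

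The BMP4 difference of HAND2 was of like size at the 3 times. From 3 h to 12 h it changed by −0.21 ± 0.45 on the log2 scale (−1.21 to 0.79), and it changed by 0.06 ± 0.45 from 12 h to 24 h (−0.94 to 1.06) and by −0.15 ± 0.52 from 3 h to 24 h (−1.3 to 1.01). These intervals leave room for changes of about the size of the BMP4 difference itself, so they do not show that it was constant. For HAND1 the BMP4 difference was 2.0 ± 0.73 greater at 12 h than at 3 h (0.38 to 3.62, unadjusted p = 0.0201, adjusted p = 0.981). From 12 h to 24 h it changed by −1.64 ± 0.73 (−3.26 to −0.02, unadjusted p = 0.0474, adjusted p = 0.813). Neither change was called. Of all probe sets limma called 0 for the change from 3 h to 12 h (1340 had an unadjusted p under 0.05), 7 (0.0247%) for that from 12 h to 24 h and 17 (0.06%) for that from 3 h to 24 h.

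Within the BMP4 arm, HAND1 went from 12.9 at 3 h to 119 and 152 at 12 h and back to 24.4 at 24 h. The step up had a log2 difference of 2.0 ± 0.51 (unadjusted p = 0.00292, adjusted p = 0.11) and the step down one of −1.64 ± 0.51 (unadjusted p = 0.00946, adjusted p = 0.266), where 377 (1.33%) and 195 (0.688%) probe sets were called. HAND2 in the same arm differed by 0.56 ± 0.32 from 3 h to 12 h (adjusted p = 0.517) and by −0.25 ± 0.32 from 12 h to 24 h (adjusted p = 0.846). Both genes thus had their highest signals on the BMP4 12 h arrays, without a called change between times.

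In untreated explants HAND2 went from 420.2 at 0 h to 266 at 3 h, a log2 difference of −0.61 ± 0.37 (adjusted p = 0.668). From 3 h to 12 h it differed by 0.77 ± 0.32 (0.07 to 1.48, unadjusted p = 0.0352, adjusted p = 0.455) and from 12 h to 24 h by −0.31 ± 0.32 (adjusted p = 0.871). These steps were 0.48 and −0.02 without untreated 12 h array A, and 1.07 and −0.6 without array B. After 24 h in culture HAND2 was within −0.15 ± 0.37 of the fresh explants (−0.96 to 0.67, adjusted p = 0.915), where 458 probe sets, 1.62%, were called. HAND1 stayed between 8.19 and 13.8 in all untreated arrays, so its untreated course is a course of values near the bottom of the array. The other untreated steps had 93 (0.328%), 142 (0.501%) and 11 (0.0388%) probe sets called from 0 to 3 h, 3 to 12 h and 12 to 24 h.

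Ordered by group mean, HAND2 ran from untreated 3 h (266) over untreated 24 h (377), 0 h (420.2) and 12 h (485) to BMP4 3 h (584), 24 h (731) and 12 h (878). All BMP4 groups stood above all untreated groups in this order. Each step between neighbours was 0.15 to 0.46 on the log2 scale, less than 2 standard errors of the step (0.32 or 0.37), so no neighbours in the order were told apart, while the whole range was 1.62. For HAND1 the order was untreated 0 h, then BMP4 3 h and the untreated 12 h, 24 h and 3 h groups at 12.9 to 13.0, then BMP4 24 h and BMP4 12 h. The step to BMP4 12 h, 1.64 ± 0.51, was the single one over 2 standard errors. The groups were ordered by these same values, and HAND1 entered the test only through the BMP4 12 h arrays. The size of this step is therefore description and no support, and limma did not call it.

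**Figure D2:**
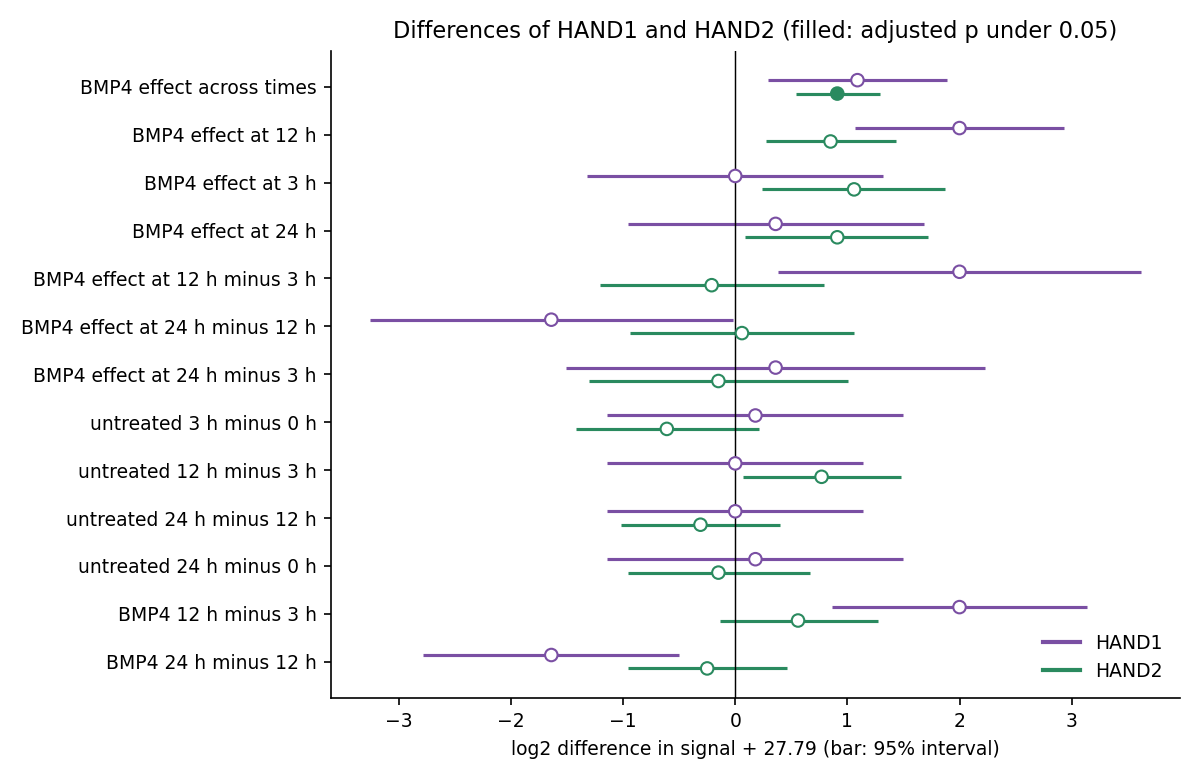
Log2 difference in signal + 27.79 for HAND1 (purple) and HAND2 (green) in each of the comparisons, with 95% intervals from limma. Filled points passed an adjusted p under 0.05, which HAND2 did across times (0.91). The HAND2 BMP4 differences at 3, 12 and 24 h (1.06, 0.85 and 0.91) lie close together, and that of HAND1 stands out at 12 h (2.0).

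The arrays had 2% trimmed means of 503.66 to 504.72. The ratio of the 3′ to the 5′ probe set for ACTB, a sign of RNA integrity, was 3.72 to 5.67. It was higher with BMP4 at 3 and 24 h. At 12 h it was higher with BMP4 within A and within B, but the arms overlapped. At 12 h it was 5.44 untreated and 5.50 with BMP4 in array A, and 3.80 and 4.26 in array B, while HAND2 was higher in A than in B without BMP4 and lower in A with it. At 24 h the ratio was 5.67 with BMP4 and 3.72 without. The part of RNA integrity in the HAND2 difference was not tested. In these explants fewer cells of a type and less RNA per cell cannot be told apart.

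Markers of the labelled tissue were present in part. The heart field factor ISL1 (5402 to 11120) and the cardiac homeobox factor NKX2-5 (4049 to 9211) were high on all 9 arrays, TBX1 was at 36.8 to 224, and FOXF1, a factor of splanchnic mesoderm, was at 7.43 to 35.8 and not tested. Of the 14 cardiomyocyte markers 8 were called higher with BMP4 across times and none lower. The share called higher over all tested probe sets was 0.738%. The summed signal of the 14 cardiomyocyte markers was 26697 against 20675 at 3 h, 62863 and 59794 against 26240 and 38000 at 12 h, and 147371 against 74679 at 24 h. This sum was higher with BMP4 at each time, as HAND2 was. It was highest at 24 h in both arms, while both HAND genes were highest on the BMP4 12 h arrays. The part of cardiomyocytes in the HAND differences was not tested. Neural crest, which expresses HAND2 in the arches, was represented too: SOX10 was at 255 to 2103 and FOXD3 at 5.28 to 392. The summed signal of the 10 crest markers on the array was 13322 with BMP4 against 14119 without at 3 h, 10225 and 14511 against 9405 and 8343 at 12 h, and 6089 against 10957 at 24 h. The crest sum was lower with BMP4 at 3 and 24 h and higher at 12 h, but the gap of TFAP2B at 24 h (844 against 6721) was greater than that of the whole sum. The part of crest cells in the HAND differences was not tested either. Of 8 tested crest markers SOX9, a factor of crest and cartilage, was called higher across times (1.71 ± 0.36, adjusted p = 0.0378) and at 12 h (2.71 ± 0.36, adjusted p = 0.00995), and none was called lower in either. SOX9 was at 224 against 148 at 3 h, 240 and 502 against 29.7 and 29.6 at 12 h, and 456 against 230 at 24 h, higher with BMP4 at each time as HAND2 was. Across times 5 of the 8 tested crest markers had a positive difference, with a median of 0.06. FOXD3 (−0.49), TFAP2A (−0.44) and TFAP2B (−0.49) went the other way. At 24 h, with 1 array in each arm, TFAP2B was called lower, with a log2 difference of −2.95.

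Other marker sums shared the direction of the HAND2 difference with BMP4, though not all shared its course over time. The sum of 8 markers of limb and body wall mesenchyme was 7387 against 3832 at 3 h, 8128 and 9391 against 4621 and 5568 at 12 h, and 7492 against 4088 at 24 h. It was made up mostly of PRRX1, the only 1 of the 8 called higher. Over all tested probe sets 0.738% were called higher across times and 0.462% lower. The sum of 6 sympathetic neuron markers was 1451 against 980, 1152 and 1401 against 927 and 904, and 1256 against 919 at the same times, with TH as its only call and, at 3 h, STMN2 as the marker with the greatest gap (792 against 310). The sum of 12 splanchnic and heart field markers was 27492 against 18482, 19320 and 22431 against 17495 and 19275, and 18568 against 16614, with 1 of 11 tested called higher and 2 lower. ISL1 and NKX2-5 made up most of this sum. Only 4 of the 11 had a positive difference across times, as HAND2 had, and the median of the 11 was −0.58. The sum of 9 endodermal and epithelial markers was 57366 against 54413, 65175 and 63556 against 56703 and 57370, and 84251 against 70309, with 1 called higher (HHEX) and 1 lower (SOX3). All 4 of these sums were higher with BMP4 at each time, as HAND2 was, but the sums do not speak for each of their members. Over the culture times the sympathetic sum was highest at 3 h and the endodermal sum at 24 h, in both arms. HAND2 was highest at 12 h with BMP4. Across times 5 of 8 limb and body wall markers had a positive difference (median 0.08). For sympathetic neurons it was 3 of 6 tested markers (median −0.02), and for endoderm and epithelium 6 of 9 (median 0.04). Limma called 0 markers across times for endothelium (1 of 9 at an unadjusted p under 0.05), blood (3 of 8), somite and skeletal muscle (2 of 3) and smooth muscle (1 of 4), where 10.4% of all tested probe sets had such a p. The sum of 9 neural markers went the other way from HAND2, with 7452 against 9095 at 3 h, 4878 and 4506 against 6811 and 6586 at 12 h, and 3469 against 6038 at 24 h. Of the 7 tested neural markers none was higher across times (median −0.81), 1 was called lower across times and 3 at 24 h. The part of cell types in the HAND differences was not tested.

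None of the E proteins, the partners of HAND proteins, passed the test, and 1 of the 4 ID inhibitors did. Over all tested probe sets 0.738% were called higher across times. The E proteins TCF3 (2304 to 3338), TCF4 (75.6 to 165) and TCF12 (12967 to 16626) had log2 differences across times of −0.07 ± 0.11, 0.06 ± 0.24 and −0.09 ± 0.08 (adjusted p = 0.906, 0.975 and 0.82). Among the ID inhibitors, ID4 rose by 0.56 ± 0.09 (adjusted p = 0.00584), with signals of 7798 to 8639 in the BMP4 arrays and 5262 to 6020 in untreated cultures. ID1 was at 24142 against 11949 at 3 h and 12753 against 12727 at 24 h, a difference across times of 0.33 ± 0.14 (adjusted p = 0.436). ID2 (0.14 ± 0.07) and ID3 (0.39 ± 0.11) did not pass the test, and the median of the 4 was 0.36. The ID1 difference was 1.01 at 3 h, 0.15 at 12 h and 0.0 at 24 h, set beside 1.06, 0.85 and 0.91 for HAND2, and these values come from the same arrays. At 12 h limma called 0 of the E proteins and ID genes, with 0 of 3 and 2 of 4 at an unadjusted p under 0.05, against 8.76% of all tested probe sets.

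Of 14 tested mesodermal and related bHLH genes none was called higher and 2 lower, with a median of −0.09. The count of 2 became 1 when any single 12 h array or the 24 h pair was left out. Of all probe sets 131 (0.462%) were called lower in this comparison. At 12 h HES5 was called lower and none of the 14 higher. HES5, a Notch target, fell by 1.81 ± 0.26 on the log2 scale (adjusted p = 0.00449), with signals of 58.6 to 118 with BMP4 and 265 to 556 in untreated cultures. SCX, a tendon and valve factor, fell by 0.92 ± 0.19 (adjusted p = 0.0356). TWIST1, a mesenchymal factor of the family closest to HAND, was at 159 to 450 without BMP4 and 190 to 344 with it, a difference of −0.14 ± 0.19 (adjusted p = 0.896). TWIST2 was at −0.04 ± 0.25.

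Among cardiac transcription factors other than HAND, 4 of 18 tested were called higher and none lower, with a median of 0.31, and at 12 h GATA5 was the single call. The shares called higher over all tested probe sets were 0.738% across times and 0.388% at 12 h. GATA5, a zinc finger factor of early heart and endoderm, had signals of 11671 to 15842 with BMP4 and 6546 to 9260 in untreated cultures, a difference of 0.89 ± 0.09 (adjusted p = 0.000362). As for HAND2, its differences at 3, 12 and 24 h were of like size (0.83, 0.81 and 1.11), and unlike HAND2 the arms did not overlap. SMYD1, a muscle methyltransferase that acts upstream of HAND2 in the mouse heart, rose by 1.19 ± 0.23 (adjusted p = 0.0216). MYOCD, a coactivator of muscle genes, rose by 1.04 ± 0.23 (adjusted p = 0.0412) and ISL1 by 0.53 ± 0.09 (adjusted p = 0.013). GATA4 (−0.02 ± 0.27), a known activator of HAND2 in the mouse, was at 35.6 to 73.3 on all arrays, and GATA6 (0.46 ± 0.16), NKX2-5 (0.44 ± 0.16), TBX5 (0.33 ± 0.45) and MEF2C (−0.58 ± 0.33) did not pass the test. TBX5 was at 6.17 to 164 and MEF2C at 9.56 to 117, on several arrays under the mark for dim signal. The TBX5 differences at 3, 12 and 24 h were −1.21, 0.01 and 2.5. Without BMP4 12 h array A 1 gene of this list was called, without untreated A or BMP4 B 2, and without the 24 h pair 2.

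**Figure D3:**
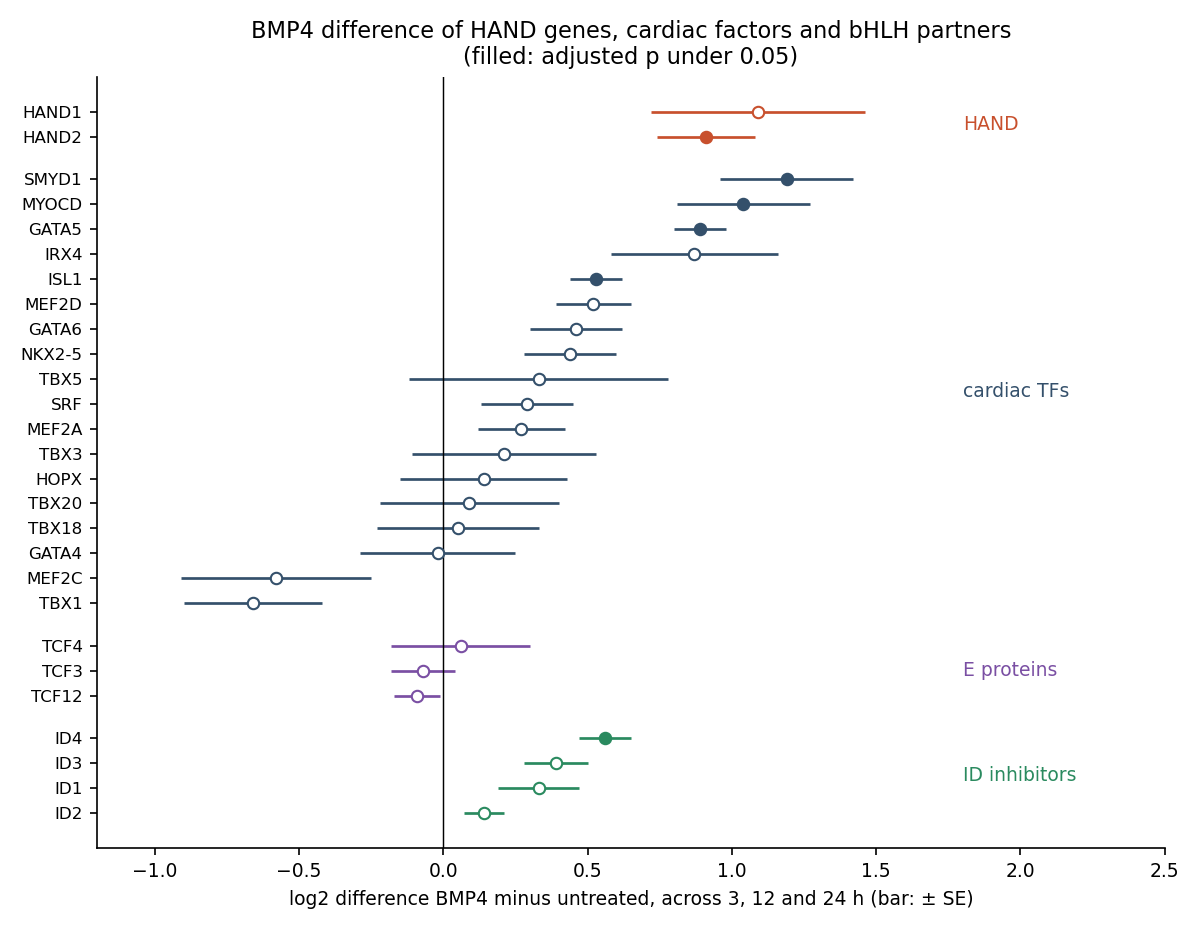
Log2 difference between BMP4-treated and untreated explants across 3, 12 and 24 h, with its standard error, for HAND1 and HAND2 (red), cardiac transcription factors (blue), E proteins (purple) and ID inhibitors (green). Filled points passed an adjusted p under 0.05. HAND2 (0.91) lies beside GATA5 (0.89), and the E proteins lie between −0.09 and 0.06.

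The BMP arm of the experiment was checked with its usual targets, of which 7 of 18 were called higher and none lower (median 0.50), and 5 were called higher at 12 h. Over all tested probe sets 0.738% were called higher across times and 0.388% at 12 h. The homeobox gene MSX2 was at 8980 to 13266 with BMP4 and 2348 to 3944 without in culture, 1.87 ± 0.10 (adjusted p = 6.6e-07). BAMBI, a decoy receptor, rose by 1.11 ± 0.08 (adjusted p = 1.28e-05), and SMAD7 (1.15 ± 0.24) and BMPER (1.25 ± 0.27) rose as well. Beside these, HAND2 was at 0.91 ± 0.17. Of 16 BMP ligands, receptors and SMADs, limma called 0 across times, with 8 at an unadjusted p under 0.05 and a median of 0.31, and 0 at 12 h, with 5. Of all tested probe sets 10.4% had such a p across times and 8.76% at 12 h.

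In the pharyngeal arches, endothelin signalling acts upstream of HAND2 through DLX5 and DLX6. Of 9 tested genes of this axis DLX5 alone was called higher, both at 12 h and across times (0.79 ± 0.12, adjusted p = 0.00558), and the median was −0.24. The shares called higher over all tested probe sets were 0.738% across times and 0.388% at 12 h. DLX5 was at 13328 to 15054 with BMP4 and 5679 to 11110 in untreated cultures. The ligand EDN1 was at 73.3 to 126 with BMP4 and 72.0 to 208 without (−0.24 ± 0.25, adjusted p = 0.837). Its receptor EDNRA was at 361 to 1550 with BMP4 and 282 to 801 without (0.55 ± 0.16, adjusted p = 0.148). DLX6 was at −0.15, 0.84 and −0.69 at 3, 12 and 24 h and did not pass the test across times (0.21 ± 0.25).

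HAND2 is linked to the noradrenergic genes of sympathetic neurons. Of 9 tested genes of this list TH, the enzyme of the first step to catecholamines, was called higher with BMP4 across times (2.51 ± 0.54, adjusted p = 0.0388) and at 12 h (adjusted p = 0.000781). The shares called higher over all tested probe sets were 0.738% across times and 0.388% at 12 h. TH was at 557 (A) and 596 (B) at 12 h and 593 at 24 h with BMP4, at 7.79 with BMP4 at 3 h, at 136 without BMP4 at 24 h, and between 4.65 and 11.8 on the other untreated arrays. TH thus shared with HAND1 the low signal at 3 h and the high signal at 12 h with BMP4, but not the low value at 24 h. DBH, the enzyme that makes noradrenaline, was at 11.4 to 102 (0.17 ± 0.33, adjusted p = 0.934). Of 7 tested genes of the limb circuit around SHH limma called 0 across times and at 12 h, and 0 had an unadjusted p under 0.05. Over all tested probe sets 10.4% had such a p across times and 8.76% at 12 h. Among 12 tested genes of lateral plate and splanchnic mesoderm GATA5, ISL1 and PRRX1 (1.02 ± 0.10, adjusted p = 0.000552) were called higher and FOXC2 (−1.17 ± 0.23, adjusted p = 0.0242) lower, with a median of −0.20. Over all tested probe sets 0.738% were called higher across times and 0.462% lower.

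Among 14 tested candidate target and chamber genes 5 were called higher across times and none lower, with a median of 0.62: MYL2 (1.02 ± 0.14, adjusted p = 0.00259), ACTC1 (0.86 ± 0.15), MYL4 (0.83 ± 0.16), TNNT2 (0.83 ± 0.12) and FHL2 (0.77 ± 0.17). The share called higher over all tested probe sets was 0.738%. All of these 5 but FHL2 are also among the cardiomyocyte markers, so the 2 counts overlap. MYL2, the ventricular light chain, was at 1002 at 3 h, 7200 and 6475 at 12 h and 19040 at 24 h with BMP4, against 628, 2406, 3128 and 10838 without. FHL2, a LIM domain cofactor found in heart muscle, was called at an adjusted p = 0.0445. At 12 h 4 of the 14 were called higher (median 0.75), where 0.388% of all tested probe sets were. NPPA, the atrial natriuretic peptide, was at 0.26 ± 0.27 (adjusted p = 0.833). MYL2 signal was highest at 24 h in both arms, while HAND2 and HAND1 signals were lower on the BMP4 24 h array than on the BMP4 12 h arrays. Whether these genes respond to HAND factors is not addressed by the data. Leaving out any 1 of the 12 h arrays gave 2 or 3 calls in place of 5, and leaving out the 24 h pair gave 2.

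The genes most like each member over the 9 arrays were taken by Pearson's r of log2(signal + 27.79), among 6141 other named genes with a log2 range of at least 1. The arrays share times and BMP4, so r describes these arrays and carries no test. HAND1 was above the mark for dim signal on the BMP4 12 h arrays alone. Its r values, also that with HAND2, therefore rest mainly on those arrays. For HAND1 they were MEGF11 (r = 0.942), NIN, a centrosome protein (0.92), ARHGAP22, a regulator of Rac (0.908), NR0B1, an orphan nuclear receptor of adrenal and gonad development (0.904), and GAK, a kinase of clathrin uncoating (0.891). NR0B1 was at 963 and 985 on the BMP4 12 h arrays, 422 at 24 h and 301 at 3 h with BMP4, and 120 to 322 without. It thus had the 12 h peak of HAND1 at a signal well above the floor. MEGF11 was at 382 and 379 on the BMP4 12 h arrays and 95.7 to 219 on the other arrays. ARHGAP22 was at 86.9 and 102 on the BMP4 12 h arrays and 32.8 to 56.5 on the others, near the mark for dim signal. The lowest r with HAND1 belonged to FGF1 (−0.936), a growth factor at 36.8 and 28.4 on the BMP4 12 h arrays and 91.5 to 171 elsewhere, followed by SDR42E2 and LRMPL (both −0.925).

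For HAND2 the most alike were LOC417741 (r = 0.942), PIFO (0.939), the kinase HIPK2 (0.939), the muscle gene activator MEF2D (0.934) and the deacetylase HDAC10 (0.927). PIFO was at 6.03 to 29.8 without BMP4 and 43.2 to 67.2 with it, mostly under the mark for dim signal. HIPK2 was at 463, 675, 758 and 793 in the BMP4 arrays at 3 h, 12 h (A and B) and 24 h, and at 253 to 381 without BMP4. MEF2D had its lowest signal in untreated explants at 3 h (1128), where HAND2 was lowest too, and its highest on the BMP4 12 h arrays (2426 and 2713). LOC417741 was also lowest in untreated explants at 3 h (530) and ran from 6016 to 17022 with BMP4. The lowest r with HAND2 belonged to PELI2 (−0.904), GYPC (−0.887) and the Notch ligand JAG1 (−0.868), which was at 173 to 495 with BMP4 and 562 to 730 without. GYPC, at 15.0 to 65.8, was mostly under the mark for dim signal. HAND1 and HAND2 had r = 0.751 with each other. Of the 6141 genes HAND2 ranked 71st for likeness to HAND1, and HAND1 ranked 113th for likeness to HAND2.

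**Figure D4:**
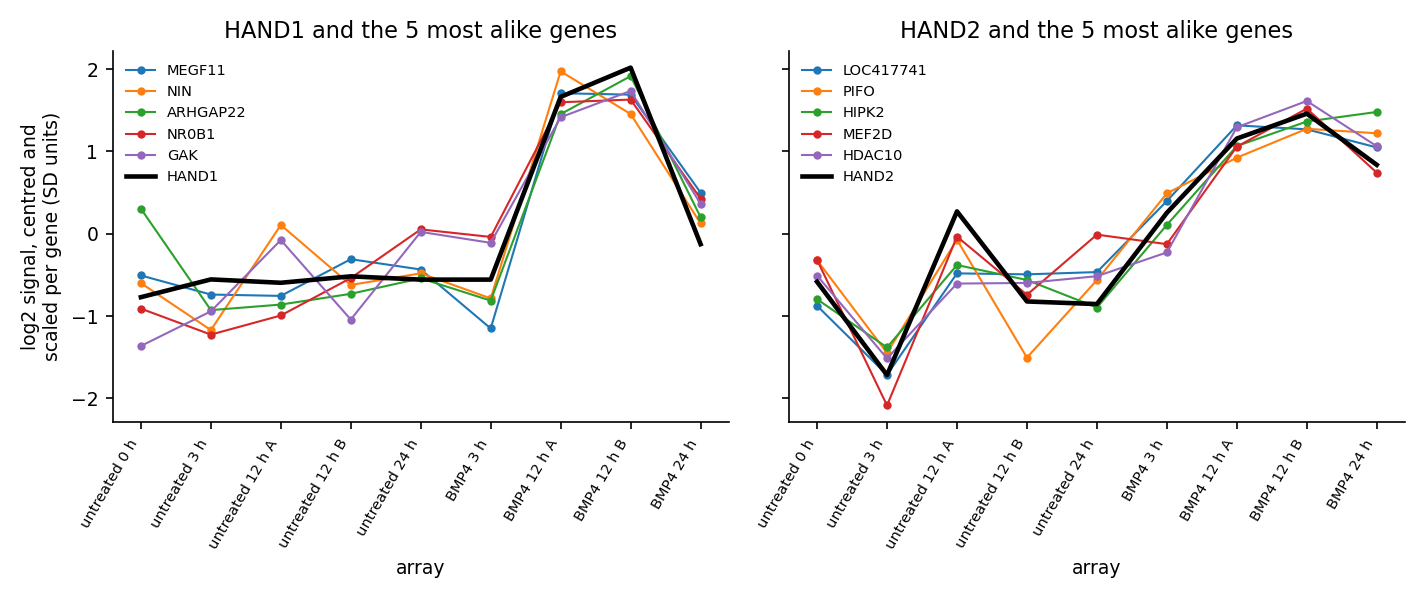
Log2 signal on each of the 9 arrays, centred and scaled per gene, for HAND1 (left, black) and HAND2 (right, black) with the 5 genes of highest Pearson's r. HAND1 and its 5 genes peak on the BMP4 12 h arrays, and HAND2 and its 5 genes are low in untreated explants at 3 h and high on the BMP4 arrays at 12 and 24 h.

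HAND2 and HAND1 lie beside related genes, SAP30 and SAP30L, subunits of histone deacetylase complexes. The 3 nearest named protein-coding genes with a tested probe set on each side were taken from assembly GRCg7b, after the values of the members had been seen. SAP30, 1 place beyond SCRG1 from HAND2, had a BMP4 difference across times of −0.28 ± 0.14 (adjusted p = 0.545), and SAP30L, next to HAND1, one of 0.11 ± 0.24 (adjusted p = 0.945). The other neighbours of HAND2 were at −0.27 (HMGB2), −0.25 (SCRG1), 0.13 (FBXO8), 0.16 (CEP44) and −0.04 (HPGD). Those of HAND1 were at 0.07 (CNOT8), −0.12 (FAXDC2), 0.06 (LARP1), −0.06 (GALNT10) and 0.15 (MFAP3), and none of them was called across times or at 12 h. HMGB2, a chromatin protein, was called lower at 24 h (−1.2 ± 0.22, adjusted p = 0.0419).

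**Figure D5:**
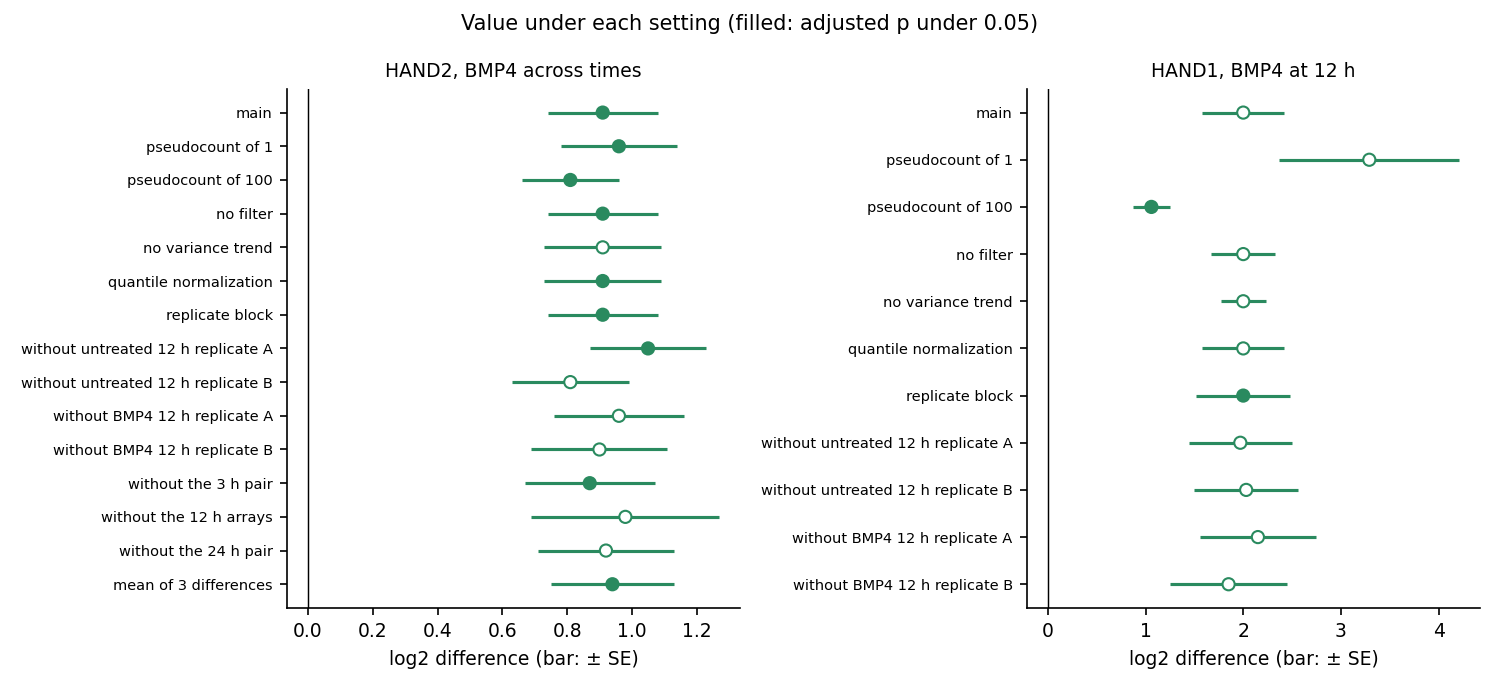
Log2 difference with its standard error under each way of processing the data, for the BMP4 difference of HAND2 across times (left) and of HAND1 at 12 h (right). Filled points passed an adjusted p under 0.05. The HAND2 value lies between 0.81 and 1.05 throughout, and that of HAND1 between 1.06 and 3.29.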

How the data were processed

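The authors deposited 1 signal intensity per probe set and array, on a linear scale. The submitters' processing notes name MAS5, and its version and scaling target are not given in the sources used here. The 9 arrays were used without further scaling, and their number limits the precision. Log2(signal + 27.79) was fitted with limma 3.58.1 in R 4.3.3 with a variance trend, over 28329 probe sets, and p-values were adjusted by Benjamini-Hochberg. The BMP4 difference across times came from the 8 cultured arrays with time as a factor (4 residual degrees of freedom). Its residual spread holds both the 12 h replicates and the variation of the BMP4 difference between times. All other comparisons came from 7 group means (2 degrees, from the 12 h arrays). Alternatives changed the amount added, the filter, the variance trend, the normalization, a block for A and B, and left out single arrays or times; with 1 array of a 12 h group left out, the lone array is assumed to vary like the others. The tests were tried on simulated data with known changes. Probe sets were named from the platform annotation and RefSeq genes (GRCg7b), and of several probe sets for a gene the one with the highest mean was taken. Where a list member had no probe set of its symbol, a synonym that 1 gene carries was used. These were MYH15 for MYH6, NPPA for NPPB, MESP1 for MESP2, ATVR1 for ACVR1 and ALAS1 for ALAS2. ALAS1 is thus counted among the blood markers in place of ALAS2. Named genes are up to 4 called list members, the likeness leaders and a fixed set of regulators, of which some are not reported here. The members and lists were chosen with earlier results of these data known.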

Additional observations from a re-analysis of the deposited data

How the results depend on the processing

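Of 268 repeats of the 26 differences of HAND1 and HAND2, 250 kept direction and side of the threshold. This count says little about stability. HAND2 across times was the only called difference, so for the others keeping the side meant staying uncalled. Leaving out a 12 h array could not move the size of differences that do not use the 12 h arrays. The HAND2 difference across times lost its call without the variance trend (0.91, adjusted p = 0.193), without the 12 h arrays (0.98, 0.588) and without the 24 h pair (0.92, 0.0826), and leaving out single 12 h arrays gave 0.81 to 1.05 (adjusted p = 0.0277 to 0.0874). HAND1 at 12 h was called with 100 added (1.06, adjusted p = 0.0331) and gave 1.85 to 2.15 (0.138 to 0.315) when single 12 h arrays were left out. Differences near 0 changed sign. They are HAND1 at 3 h (0.0) and from 12 to 24 h untreated (0.0) with quantile normalization, the latter also with 100 added (0.0), and −0.03 to 0.03 when single 12 h arrays were left out, as was HAND1 from 3 to 12 h untreated (−0.03 to 0.03). The change of the HAND2 difference from 3 to 12 h ran from −0.5 to 0.09 and from 12 to 24 h from −0.23 to 0.35 when single arrays were left out.

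With A and B as a replicate block, HAND1 (2.0, adjusted p = 0.0103) and HAND2 (0.85, adjusted p = 0.0201) at 12 h, and HAND1 from 3 to 12 h with BMP4 (2.0, adjusted p = 0.0306), were called, with 1106 probe sets called at 12 h against 174, and no other call of the members changed. The A minus B differences of the arms correlated over probe sets at r = 0.126. With 2 pairs and no label that ties A to A, the letters are not taken as pairs.

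The count called across times, 340, was 4 without the trend, 9 without the 12 h arrays, 591 without the 3 h pair, 146 without the 24 h arrays and 147 to 218 when single 12 h arrays were left out. At 12 h, 174 became 0 in limma without the trend (2339 at an unadjusted p under 0.05), 86 without the filter, 111 with 1 added and 99 without untreated A. The causes were not tested. Signal near the array's floor limits HAND1 on 7 arrays.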
